A study of Mus musculus with 25 samples.

Results

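The genes described are 10 that encode subunits of the Polycomb repressive complexes: Ezh1, Ezh2, Eed, Suz12 and Jarid2 of PRC2, and Ring1, Rnf2, Pcgf1, Pcgf6 and Kdm2b of PRC1. They were chosen by symbol among the 24412 gene symbols of the files, by a rule that uses no measured value, though with earlier results of these data known, and all 10 were found in every library. Across MII oocytes, zygotes and 2-cell embryos, 9 of them were expressed in all libraries, and Ring1 was at or near 0. At no stage after the oocyte did any of the 9 pass the test between embryos from Smarca4-deleted oocytes and wild-type embryos. Few genes of any kind did: 3.05% of all tested in zygotes, 0.00828% in early and 0.770% in late 2-cell embryos. In both genotypes Kdm2b, Ezh2 and Eed RNA fell between the early and the late 2-cell stage. In that step 14.0% of all genes were called lower in the knockout and 18.3% in wild type.

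Polycomb complexes keep developmental genes silent through marks on histone tails. PRC2 methylates lysine 27 of histone H3, and PRC1 attaches ubiquitin to lysine 119 of histone H2A. In the mouse oocyte the H3 mark spreads over broad domains, and after fertilisation the maternal copies of some genes remain silent under it, a form of imprinting without DNA methylation. The BAF remodelling complex, whose ATPase is either Smarca4 (Brg1) or Smarca2, is known as an antagonist of Polycomb.

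The study compared knockout (KO) and wild-type (WT) mouse oocytes and embryos at metaphase II (MII, the mature unfertilised egg), at pronuclear stage 3 (PN3, the zygote), at the early 2-cell (E2C) and at the late 2-cell stage (L2C). KO and WT had 2 and 3 libraries at MII, 4 each at PN3 and 3 each at both 2-cell stages, all of ribosome-depleted total RNA. Oocytes were collected from superovulated females, 8 to 12 weeks old, and fertilised by injection of sperm. The females were B6D2F1 hybrids or C57BL/6 mice with the Smarca4flox/flox alleles and Gdf9 Cre, in which a promoter of the growing oocyte drives the recombinase. The deletion is thus maternal. The sources used here give neither the genotype of the sperm nor the strain of female for a library, so strain and genotype cannot be told apart. The labels do not tie replicates to separate females, and p-values therefore reflect library-to-library spread that may be technical. Values are FPKM (sequenced fragments divided by transcript length and by library size), rescaled between libraries, and the number of reads behind them is unknown. FPKM is relative to the other RNA of a library, so less of a transcript per embryo and more of all others cannot be told apart.

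The knockout was visible in the RNA. Smarca4 averaged 0.220 ± 0.00136 FPKM in KO oocytes (SD, n = 2) and 28.0 ± 2.31 in WT oocytes (n = 3), and 22.0 ± 0.807 in KO and 71.0 ± 21.1 in WT L2C embryos (n = 3 each). Its KO minus WT difference on the scale of log2(FPKM + 1) was -4.57 in oocytes, -4.61 in zygotes, -3.19 in early and -1.60 in late 2-cell embryos, and it passed the test at each stage. Oocyte markers, summed over 10 genes, lay between 823 and 4358 FPKM over all libraries, against at most 19.7 for 13 cumulus and granulosa markers, 21.8 for 8 sperm markers and 1.62 for 9 blood and immune markers. Of the 8 markers of the 2-cell stage, 7 were called higher at E2C than at PN3 in KO and 8 in WT. Replicate libraries correlated at r of at least 0.988 at MII and PN3, but the median within-group SD (log2) was 0.0790 in oocytes, 0.128 in zygotes, 0.352 in early and 0.322 in late 2-cell embryos. WT E2C replicate 2 had 9345 genes above 0, against 13585 to 16698 in the other libraries. WT L2C replicate 3 correlated with the KO L2C libraries at a mean r of 0.972 and with its own group at 0.925. WT E2C replicates 1 and 3 had a higher mean r with the KO libraries of their stage, at 0.952 and 0.969, than with their own group, at 0.931 and 0.934. Those own-group means include WT E2C replicate 2, whose own mean was 0.909. With each other, replicates 1 and 3 correlated at 0.956, so only replicate 3 was nearer to KO than to that library.

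Promoter sequences are shown for Ezh2, Eed and Kdm2b, the members whose RNA fell together at the late 2-cell stage in both genotypes, and for Suz12, the member with the highest level there. Each window holds 300 bases around a RefSeq gene start (GRCm38.p6), most of them upstream of that start, on the strand of the gene, with every CpG in capitals. The GENCODE gene bounds given below begin farther upstream for Ezh2 and Kdm2b, so their windows lie inside those bounds. Of the 10 members, 9 matched a promoter, and Kdm2b has 4 windows, of which the most upstream is given.
Ezh2 (chr6:47594981-47595280, minus strand): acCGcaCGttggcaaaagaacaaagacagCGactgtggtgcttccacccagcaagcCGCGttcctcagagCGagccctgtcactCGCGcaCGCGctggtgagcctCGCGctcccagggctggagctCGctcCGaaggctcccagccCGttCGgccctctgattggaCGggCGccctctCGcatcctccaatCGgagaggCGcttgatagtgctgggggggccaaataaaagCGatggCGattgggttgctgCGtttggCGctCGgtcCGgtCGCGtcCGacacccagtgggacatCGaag
Eed (chr7:89980927-89981226, minus strand): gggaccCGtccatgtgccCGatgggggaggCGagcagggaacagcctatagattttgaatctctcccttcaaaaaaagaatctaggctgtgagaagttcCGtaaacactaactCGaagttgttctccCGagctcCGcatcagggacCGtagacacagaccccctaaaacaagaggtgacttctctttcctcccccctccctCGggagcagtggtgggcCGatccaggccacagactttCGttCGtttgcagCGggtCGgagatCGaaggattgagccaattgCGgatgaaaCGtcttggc
Kdm2b (chr5:122989050-122989349, minus strand): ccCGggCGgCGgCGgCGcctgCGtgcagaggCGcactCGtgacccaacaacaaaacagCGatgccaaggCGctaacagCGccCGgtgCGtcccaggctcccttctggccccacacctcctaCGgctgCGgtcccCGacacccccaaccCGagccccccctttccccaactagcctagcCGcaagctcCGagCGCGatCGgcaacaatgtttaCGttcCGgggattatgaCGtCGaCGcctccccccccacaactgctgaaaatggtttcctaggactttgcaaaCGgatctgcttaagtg
Suz12 (chr11:79992856-79993155, plus strand): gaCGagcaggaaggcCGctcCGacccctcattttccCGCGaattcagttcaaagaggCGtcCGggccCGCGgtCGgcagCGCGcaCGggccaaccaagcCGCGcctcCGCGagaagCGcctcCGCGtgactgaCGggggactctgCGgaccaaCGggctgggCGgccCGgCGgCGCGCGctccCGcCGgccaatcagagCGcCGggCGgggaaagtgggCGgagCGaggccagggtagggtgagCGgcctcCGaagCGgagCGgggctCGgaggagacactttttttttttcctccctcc

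These windows hold 31 CpG in Ezh2, 17 in Eed, 28 in Kdm2b and 41 in Suz12, and the other matched members have 22 to 37, against a median of 7 over 27025 genes. The Eed window has the fewest of the 9. The E2F core TTTNNCGC, searched on both strands, was found in Ezh2 and Suz12 and in no other matched member, and 5.29% of all windows hold it. A CCAAT box was found in Ezh2, Eed, Suz12 and Jarid2 (38.0% of all windows), and the GC box GGGCGG in Suz12, Ring1, Rnf2, Jarid2, Pcgf6 and Kdm2b (35.9% of all windows). The ETS core CCGGAAG (9.14% of all windows) was in none of the 9. Ezh2, Eed and Kdm2b share no searched motif, since Kdm2b holds only the GC box, which Ezh2 and Eed lack. These matches describe letters in the window only.

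The level of each member by stage is given next, as a description. In KO oocytes Kdm2b (141 FPKM) and Ezh2 (138) were highest and their libraries overlapped. They were followed by Pcgf1 (96.0), Suz12 (93.1), Eed (63.9) and Pcgf6 (60.0), of which the last pair overlapped, and by Rnf2 (38.5), Jarid2 (28.6) and Ezh1 (19.6). In WT oocytes Ezh2 (153) was above all libraries of the next member, Kdm2b (122), which overlapped Pcgf1 (120). The order below them was the same as in KO, from Suz12 (102) to Ezh1 (16.0). By the late 2-cell stage the order had changed. In KO L2C embryos Suz12 (212) stood above Ezh2 (108) and Rnf2 (69.3). Below these, Kdm2b (42.0), Eed (41.3), Pcgf1 (40.7) and Pcgf6 (39.0) overlapped each other in turn, above Ezh1 (24.6) and Jarid2 (18.2). In WT L2C embryos Suz12 (202.5) was again highest, the libraries of Ezh2 (82.7) overlapped those of Rnf2 (68.4), and Pcgf1, Pcgf6, Kdm2b and Eed lay between 46.5 and 35.2. The widest range of group means was that of Kdm2b, 4.40-fold, and the narrowest of the 9 expressed members was that of Jarid2, 1.59-fold.

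**Figure D1:**
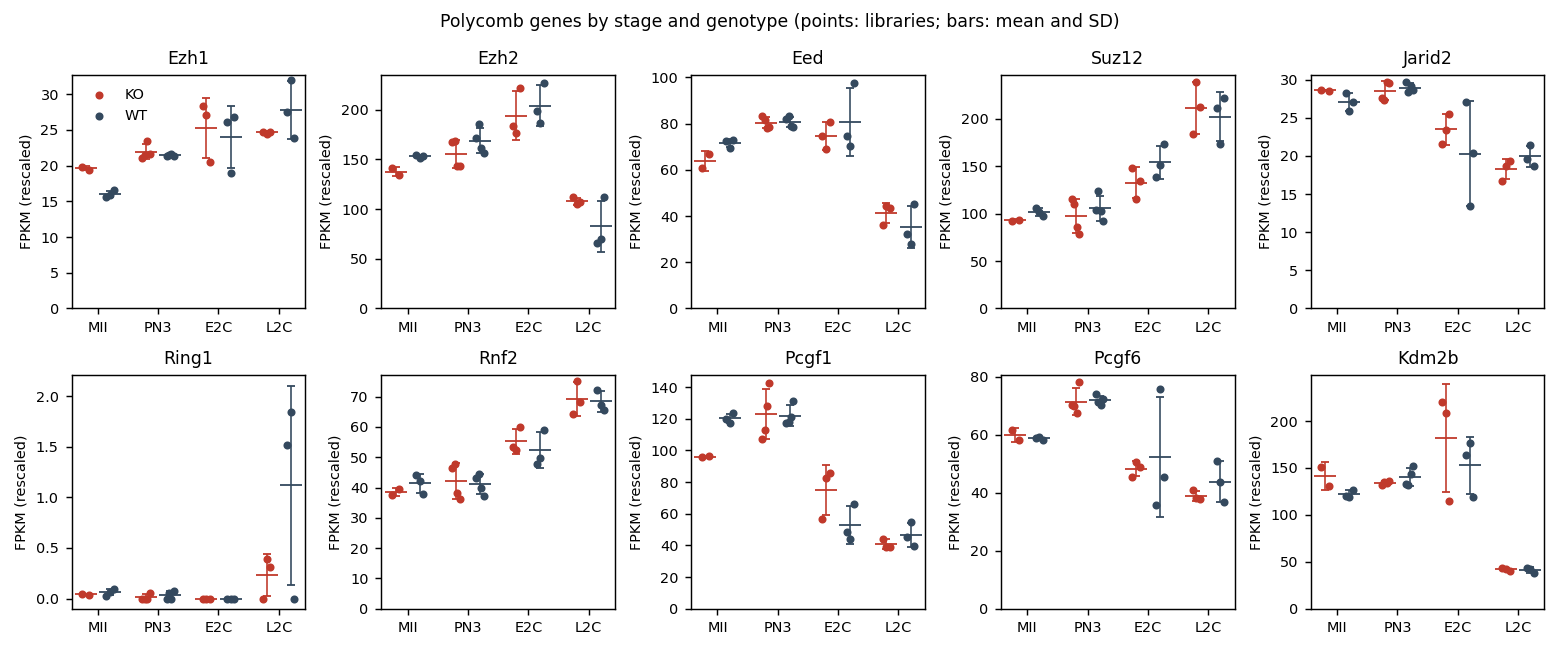
Rescaled FPKM (y axis, linear, a scale of its own for each gene) of the 10 members at MII, PN3, E2C and L2C (x axis) in KO (red, left) and WT (grey, right), with 1 point per library and bars for the mean and SD. Kdm2b, Ezh2 and Eed are lower at L2C than at E2C in both genotypes, Suz12 and Rnf2 have their highest means at L2C, and Ring1 stays under 2 FPKM.

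In the oocyte, 4 of the 9 tested members differed between KO and WT in the limma fit of all libraries (adjusted p under 0.05 by the Benjamini-Hochberg method over 12079 genes), against 13.0% of all genes tested. Ezh1, the less active of the PRC2 methyltransferases, and Kdm2b, which brings PRC1 to unmethylated CpG DNA, were higher in KO. Eed, the PRC2 subunit that reads methylated H3, and Pcgf1, the partner of Kdm2b in variant PRC1, were lower in KO. The 9 members had a median difference of -0.10 (log2), and the median over all genes was -0.00066. Of all genes, 5.99% were called higher and 6.99% lower.

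Ezh1 had 19.8 and 19.4 FPKM in KO oocytes, against 15.6, 15.8 and 16.5 in WT oocytes. The groups did not overlap, and the difference was 0.28 ± 0.05 (log2, SE, adjusted p = 2.38e-04, limma). Pcgf1 had 95.6 and 96.3 FPKM in KO oocytes, against 120, 117 and 123 in WT oocytes. Again no library of a group reached the other, and the difference was -0.32 ± 0.06 (limma adjusted p = 0.00110). Eed had 60.7 and 67.0 FPKM in KO oocytes, against 72.5, 69.6 and 72.7 in WT oocytes. All KO libraries were lower, by -0.16 ± 0.05 (limma adjusted p = 0.0300). Kdm2b had 152 and 130 FPKM in KO oocytes, against 121, 119 and 127 in WT oocytes. All KO libraries were higher, by 0.20 ± 0.06 (limma adjusted p = 0.0319), and replicate 2 was close to the highest WT library.

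Libraries of the groups did not overlap for 7 of the 9 members in the oocyte, against 40.4% of all genes tested. Besides the 4 that passed the test, these were Ezh2, the main methyltransferase, with 141 and 134 FPKM in KO against 155, 152 and 153 in WT (-0.15 ± 0.06, limma adjusted p = 0.0881), Suz12, the scaffold of PRC2, and Jarid2, an accessory subunit that binds ubiquitinated nucleosomes. Rnf2, the ubiquitin ligase, and Pcgf6, which joins PRC1 to the Mga and E2f6 proteins, overlapped and did not pass the test. With the MII groups fitted alone, Ezh1 (limma adjusted p = 0.0455) and Pcgf1 (0.0283) still passed, while Eed (0.150) and Kdm2b (0.162) did not. With the spread taken as equal at all stages none of the 4 passed (limma adjusted p = 1 for each). Over all 35 alternatives the adjusted p of Ezh1 ran from 1.62e-04 to 1 and that of Pcgf1 from 1.40e-04 to 1, and each passed in 34. Eed passed in 28 of the 35 and Kdm2b in 26. Most of the 35 left out only libraries of other stages, which cannot move the oocyte difference and change only the weights and shared spread. Passing in those is no separate support. Without KO MII replicate 1 the Kdm2b difference was 0.09 and without KO MII replicate 2 it was 0.31, so either KO library moves it by over 1.5 times. For Eed these values were -0.09 and -0.23. The Eed call ended without any of the 3 WT MII libraries or KO MII replicate 1 (limma adjusted p of 0.0576 to 0.301). The Kdm2b call ended without WT MII replicate 1 or 2, KO MII replicate 1 or WT E2C replicate 2 (limma adjusted p of 0.0526 to 0.407). It also ended with FPKM as deposited (0.15, limma adjusted p = 0.133), as TPM (limma adjusted p = 0.0513) and with 1 weight per library (0.0641).

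**Figure D2:**
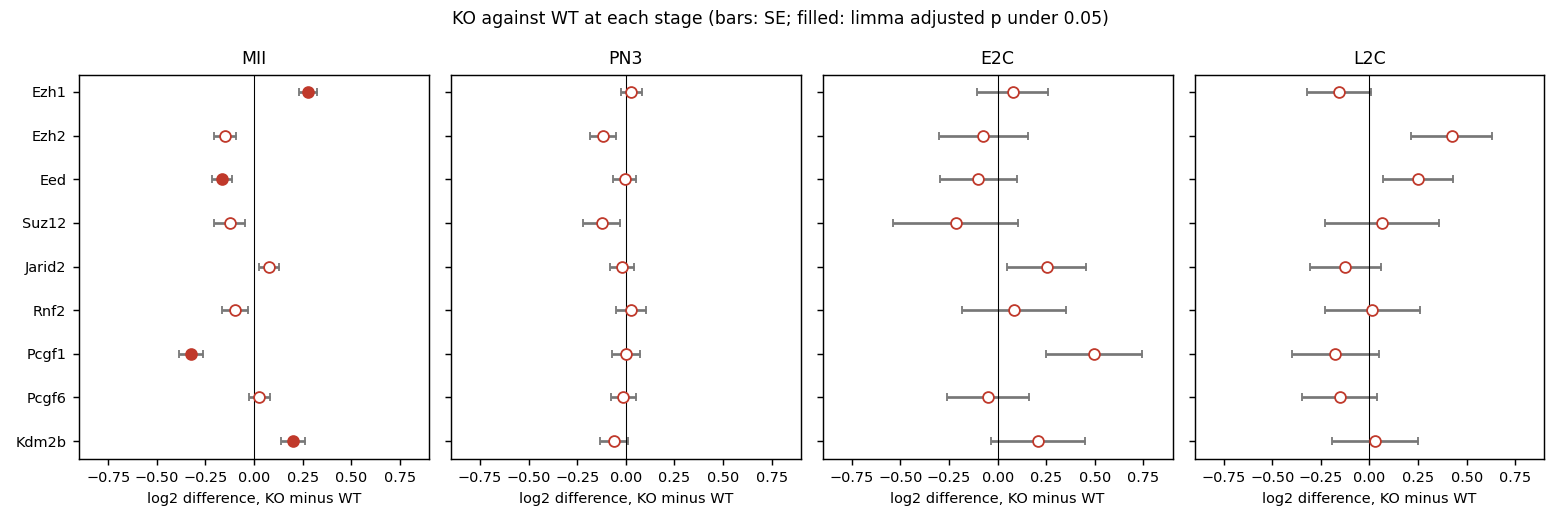
Differences between KO and WT (x axis, log2(FPKM + 1), KO minus WT) of the 9 tested members at each stage, with SE bars and filled points where the limma adjusted p was under 0.05. Ezh1 and Kdm2b lie to the right and Eed and Pcgf1 to the left of 0 at MII, where they are filled, and no point is filled at PN3, E2C or L2C.

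After fertilisation no member passed the test between the genotypes. At PN3 the count was 0 of 9, against 3.05% of all genes tested, and 0 members had an unadjusted p under 0.05. The 9 differences lay between -0.12 (Ezh2 and Suz12) and 0.03 (Ezh1 and Rnf2), with SE of 0.05 to 0.10, and the libraries of the groups overlapped for each member (10.2% of all genes tested did not overlap). Ezh1, higher in KO oocytes, had 21.1, 21.5, 23.5 and 21.7 FPKM in KO zygotes and 21.4, 21.5, 21.6 and 21.3 in WT zygotes. Pcgf1, lower in KO oocytes, had 108, 113, 128 and 143 FPKM in KO zygotes and 117, 118, 121 and 131 in WT zygotes. For both genes the genotypes were interleaved.

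The change in the KO effect from MII to PN3 was tested as an interaction. It was -0.25 ± 0.07 for Ezh1 (limma adjusted p = 0.0634) and 0.32 ± 0.10 for Pcgf1 (limma adjusted p = 0.0731), and no member passed (0 of 9, against 2.29% of all genes tested), with 4 members at an unadjusted p under 0.05. Between PN3 and E2C and between E2C and L2C no member passed either, against 0% and 0.00828% of all genes, with 0 members at an unadjusted p under 0.05 in each. A loss of the oocyte differences by PN3 was therefore not shown.

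At E2C the count was 0 of 9, against 0.00828% of all genes tested, which is Smarca4 itself, and 0 members had an unadjusted p under 0.05. Fitted alone, the E2C groups gave 0 genes. The largest member difference was that of Pcgf1, with 56.7, 82.9 and 85.7 FPKM in KO embryos, against 48.4, 44.1 and 66.2 in WT embryos (0.50 ± 0.25, limma adjusted p = 0.851). A KO library lay inside the WT range. The SE of the members at this stage, 0.18 to 0.32, exceeded that at MII (0.05 to 0.08), so differences of the size seen in oocytes were not detectable here.

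At L2C the count was again 0 of 9, against 0.770% of all genes tested, with 0 members at an unadjusted p under 0.05. Ezh2 had 112, 105 and 107 FPKM in KO embryos, against 65.5, 70.3 and 112 in WT embryos. The KO libraries lay together at the level of WT replicate 3, above the other WT libraries (0.42 ± 0.21, limma adjusted p = 0.291). Eed had 36.2, 44.3 and 43.5 FPKM in KO and 32.4, 27.8 and 45.3 in WT (0.25 ± 0.18, limma adjusted p = 0.480). Its KO libraries were also above WT replicates 1 and 2, but KO replicate 1 was nearest to WT replicate 1. Without WT L2C replicate 3 Ezh2 was higher in KO by 0.66 (limma adjusted p = 0.00989) and Eed by 0.44 (limma adjusted p = 0.0471). That library was left out because it resembled the KO group, so larger differences follow from the choice and are no added support. Over all 35 alternatives the adjusted p ran from 0.00989 to 0.738 for Ezh2, the highest without WT L2C replicate 1. For Eed it ran from 0.00954 to 0.913, the highest without WT L2C replicate 2. The summed oocyte markers divided these libraries in the same way, at 2034 to 3030 FPKM in KO (median 3010) and 823 to 2216 in WT (median 1008). So did the summed 2-cell markers, at 245 to 327 FPKM in KO, against 72.4, 109 and 361 in WT replicates 1, 2 and 3. The part of either marker sum in the member differences was not tested. Suz12 (0.06 ± 0.29), Rnf2 (0.02 ± 0.24) and Kdm2b (0.03 ± 0.22) had the smallest differences at L2C.

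Within each genotype, successive stages were compared to follow the RNA of the complexes through fertilisation and the first division. From MII to PN3, 5 members rose in KO and 4 in WT, and none fell, against 17.6% of all genes called higher in KO and 19.2% in WT. Those that rose in both were Ezh1, Eed and Pcgf6, and WT embryos had Kdm2b in addition, KO embryos Ezh2 and Pcgf1. In KO, Pcgf1 rose to 123 FPKM in zygotes, against 96.0 in oocytes (0.34 ± 0.07, limma adjusted p = 3.84e-04), and Eed to 80.5, against 63.9 (0.33 ± 0.06, limma adjusted p = 4.98e-05). In WT, Ezh1 rose to 21.5 FPKM in zygotes, against 16.0 in oocytes (0.40 ± 0.05, limma adjusted p = 2.83e-07), and Pcgf6 to 72.0, against 58.8 (0.29 ± 0.06, limma adjusted p = 1.72e-04). In KO, Pcgf6 rose by 0.25, Ezh2 by 0.17 and Ezh1 by 0.15, and in WT Kdm2b rose by 0.19 and Eed by 0.17. Fitted alone, the KO groups did not give Ezh1 (limma adjusted p = 0.131) or Ezh2 (0.168). The KO call of Ezh1 ended without KO MII replicate 2 or KO PN3 replicate 3 (0.0743 and 0.10), and that of Ezh2 without KO MII replicate 2, KO PN3 replicate 1 or 2 or any WT MII library (0.0508 to 0.165). The WT call of Kdm2b ended without WT MII replicate 2 or WT PN3 replicate 3 or 4 (limma adjusted p of 0.0547 to 0.0782). Low-level transcription begins in the zygote, and total RNA does not tell new transcripts from stored ones.

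From PN3 to E2C the members that fell were Pcgf1 and Pcgf6 of variant PRC1 and, in WT, Jarid2 of PRC2. In KO, 2 of 9 fell, against 12.2% of all genes, and in WT 3 of 9, against 18.1%. Pcgf1 fell to 75.1 FPKM in KO early 2-cell embryos, against 123 in KO zygotes (-0.72 ± 0.18, limma adjusted p = 0.00702), and to 52.9 in WT early 2-cell embryos, against 122 in WT zygotes (-1.21 ± 0.18, limma adjusted p = 2.44e-05). Pcgf6 fell to 48.3 FPKM at E2C, against 71.5 at PN3, in KO (-0.56 ± 0.16, limma adjusted p = 0.0142) and to 52.4 at E2C, against 72.0 at PN3, in WT (-0.52 ± 0.16, limma adjusted p = 0.0146). WT E2C replicate 2 had 75.7 FPKM of Pcgf6, above the WT zygotes, against 36.0 and 45.6 in the other WT E2C libraries, and without it the difference was -0.81. Jarid2 fell in WT, to 20.3 FPKM at E2C, against 29.0 at PN3 (-0.55 ± 0.15, limma adjusted p = 0.00764), and its lowest library, 13.4, was also WT E2C replicate 2. Without that library the Jarid2 difference was -0.29 (limma adjusted p = 0.102). Without KO E2C replicate 1 the KO calls of Pcgf1 (-0.53, limma adjusted p = 0.184) and Pcgf6 (-0.51, limma adjusted p = 0.142) ended, and without WT E2C replicate 1 the WT call of Pcgf6 did (-0.29, limma adjusted p = 0.238). The Pcgf6 call also ended without replicate 2 (limma adjusted p = 0.0714) or 3 (0.0686) of KO E2C and without WT E2C replicate 3 (0.0855). Fitted alone, the WT groups gave neither Jarid2 (limma adjusted p = 0.0863) nor Pcgf6 (0.0965).

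From E2C to L2C, 4 members fell in KO and 3 in WT, and none rose, against 14.0% of all genes called lower in KO and 18.3% in WT. The median over the members was -0.35 in KO and -0.17 in WT, against 0.15 and 0.25 over all genes. Kdm2b changed most. It had 43.8, 42.2 and 40.1 FPKM in KO L2C embryos, against 220, 209 and 115 in KO E2C embryos (-2.03 ± 0.23, limma adjusted p = 3.47e-07). In WT it had 43.3, 42.8 and 37.6 FPKM at L2C, against 163, 177 and 119 at E2C (-1.85 ± 0.23, limma adjusted p = 6.28e-07). Every L2C library was below every E2C library in both genotypes, where 59.4% of all genes in KO and 53.8% in WT did not overlap in this step. Replicates 3 of both genotypes were the lowest at E2C. They also had the most ribosomal RNA precursor Rn45s, 10915 FPKM in KO and 7357 in WT, against 812 to 2595 in the other E2C libraries. Without both of them the difference was -2.33 in KO (limma adjusted p = 2.29e-07), against -2.02 in WT (limma adjusted p = 7.89e-07).

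Ezh2 fell to 108 FPKM in KO L2C embryos, against 194 in KO E2C embryos (-0.83 ± 0.22, limma adjusted p = 0.00380). In WT it fell to 82.7 at L2C, against 204 at E2C (-1.33 ± 0.22, limma adjusted p = 2.17e-05). Eed fell to 41.3 FPKM at L2C, against 74.8 at E2C, in KO (-0.84 ± 0.19, limma adjusted p = 9.89e-04) and to 35.2 at L2C, against 80.9 at E2C, in WT (-1.19 ± 0.19, limma adjusted p = 1.38e-05). All L2C libraries were below all E2C libraries for both genes. The larger fall in WT was not shown to differ from that in KO (interaction 0.50 ± 0.31, limma adjusted p = 0.552, for Ezh2 and 0.35 ± 0.27, limma adjusted p = 0.636, for Eed). Pcgf1 fell in KO, to 40.7 FPKM at L2C, against 75.1 at E2C (-0.85 ± 0.23, limma adjusted p = 0.00594), and in WT had 46.5 FPKM at L2C and 52.9 at E2C (-0.17 ± 0.23, limma adjusted p = 0.566). The difference between genotypes in this step did not pass (-0.67 ± 0.33, limma adjusted p = 0.449).

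Suz12 and Rnf2 did not follow. Suz12 had 184, 239 and 212 FPKM in KO L2C embryos, against 148, 116 and 135 in KO E2C embryos (0.67 ± 0.31, limma adjusted p = 0.0882), and 212, 173 and 222 in WT at L2C, against 138, 152 and 173 at E2C (0.39 ± 0.31, limma adjusted p = 0.309). Rnf2 had 64.4, 75.3 and 68.2 FPKM in KO at L2C, against 53.5, 52.4 and 60.1 at E2C (0.32 ± 0.26, limma adjusted p = 0.343). In WT it had 72.3, 67.2 and 65.8 at L2C, against 47.9, 49.8 and 59.1 at E2C (0.39 ± 0.26, limma adjusted p = 0.217). For both genes every L2C library was above every E2C library of its genotype, without a call, against the 59.4% and 53.8% of all genes without overlap in this step. For Suz12 in WT the nearest libraries were level at 173 FPKM, and as deposited they overlapped, at 157.6 at L2C and 157.7 at E2C. Their stage differences from PN3 to E2C were also positive in both genotypes (0.33 to 0.54) and did not pass. Ezh1 did not exceed 31.9 FPKM in any 2-cell library, and no step of it after PN3 passed.

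**Figure D3:**
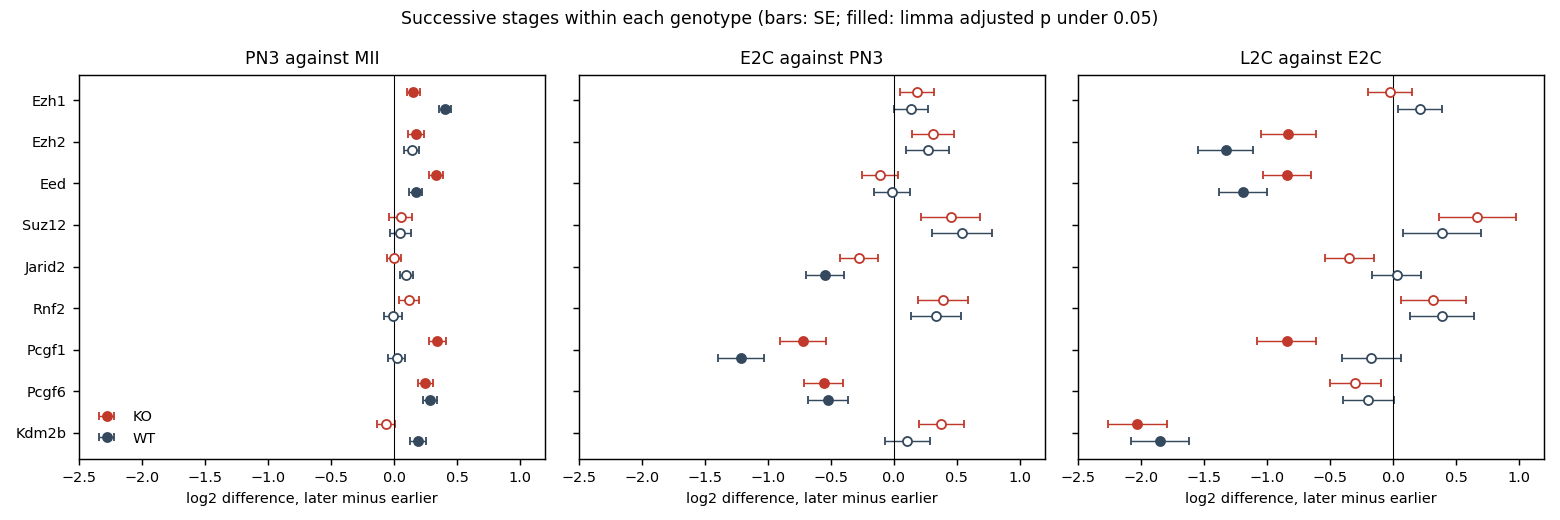
Differences between successive stages (x axis, log2(FPKM + 1), later minus earlier) of the 9 tested members in KO (red, upper) and WT (grey, lower), with SE bars and filled points where the limma adjusted p was under 0.05. Filled points are to the right of 0 in the step from MII to PN3 and to the left in both later steps, with Kdm2b farthest left at L2C against E2C.

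Ring1, the paralog of Rnf2 as the ubiquitin ligase of PRC1, was listed at 0 in 13 of the 25 libraries and reached 1 FPKM as deposited in 2, so it was not tested. At L2C it had 0, 0.394 and 0.308 FPKM in KO, against 1.52, 1.84 and 0 in WT. The WT library at 0 was replicate 3, which resembled the KO group. At E2C all 6 libraries were at 0. The level of Rnf2 was 36.1 to 75.3 FPKM over all libraries, so nearly all ligase RNA measured here came from Rnf2.

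The balance of paralogs was compared within each library as a log2 ratio of FPKM + 1. Ezh2 over Ezh1 averaged 2.75 ± 0.03 in KO and 3.18 ± 0.04 in WT oocytes (SD, n = 2 and 3), and the libraries did not overlap. The exact two-sided permutation p was 0.10, the smallest this design allows, and 0.60 after adjustment over 12 ratio tests. At L2C the ratio was 2.09 ± 0.04 in KO, against 1.51 ± 0.59 in WT (n = 3 each, exact permutation p = 0.40, adjusted 0.80), with WT replicate 3 at the KO level. The difference was 0.58, and 0.92 without that library, an increase that follows from leaving out the WT library most like KO. In both genotypes the mean was lower at L2C than at the earlier stages. Pcgf6 over Pcgf1 was -0.67 ± 0.07 in KO and -1.02 ± 0.05 in WT oocytes (exact permutation p = 0.10, adjusted 0.60), and close to 0 at L2C, at -0.06 ± 0.05 in KO and -0.08 ± 0.25 in WT (exact permutation p = 0.90). None of the 12 tests passed, and none could. With 3 libraries against 3 or 2 against 3 the smallest exact permutation p is 0.10. With 4 against 4 at PN3 it is 0.0286, which stays above 0.05 after adjustment over the 12 tests. The ratio of Rnf2 to Ring1 is set mostly by the pseudocount, since Ring1 was near 0.

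**Figure D4:**
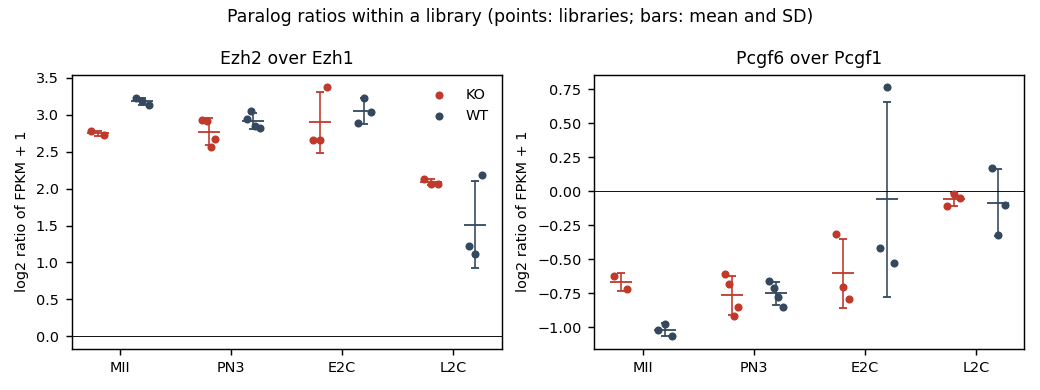
Log2 ratio of FPKM + 1 (y axis) of Ezh2 over Ezh1 and of Pcgf6 over Pcgf1 in each library by stage (x axis), KO in red on the left and WT in grey on the right, with mean and SD. Both ratios separate KO from WT at MII, and Ezh2 over Ezh1 is lower at L2C than at MII in both genotypes.

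Among 9 other PRC2 genes, all of which were tested, 1 was higher in KO oocytes (5.99% of all genes called higher), 0 were called at PN3 and at E2C, and 2 were higher in KO at L2C, against 0.447% of all genes called higher there. In oocytes this was Rbbp4, a histone-binding subunit, with 16.8 FPKM in KO, against 14.9 in WT (0.17 ± 0.05, limma adjusted p = 0.0276), a call that held in 26 of 35 alternatives and not with equal weights. At L2C it was AU022751, which RefSeq names Ezhip, an inhibitor of the PRC2 methyltransferase, and E130012A19Rik, which RefSeq names Epop, a PRC2 accessory protein. AU022751 had 172, 217 and 247 FPKM in KO L2C embryos, against 49.4, 53.3 and 145 in WT (1.52 ± 0.36, limma adjusted p = 0.0456). Every KO library was above every WT library, and WT replicate 3 was again nearest to KO. E130012A19Rik had 4.14, 3.21 and 2.81 FPKM in KO and 0.594, 0.191 and 1.76 in WT (1.32 ± 0.31, limma adjusted p = 0.0442). With the L2C groups fitted alone neither passed (limma adjusted p = 0.295 for both), and no gene did. Over 35 alternatives AU022751 passed in 10, with adjusted p from 2.57e-05 to 0.335, and E130012A19Rik in 7, from 1.78e-04 to 0.339. Without WT L2C replicate 3 the AU022751 difference was 2.01 (limma adjusted p = 6.19e-05), an increase that follows from leaving out a KO-like library.

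AU022751 was the PRC2-related gene that changed most between stages. It rose to 982 FPKM in KO early 2-cell embryos, against 474 in KO zygotes (1.03 ± 0.29, limma adjusted p = 0.0145), and to 940 in WT early 2-cell embryos, against 437 in WT zygotes (1.07 ± 0.29, limma adjusted p = 0.00723). By L2C it fell to 212 in KO (-2.19 ± 0.38, limma adjusted p = 6.58e-05) and to 82.6 in WT (-3.64 ± 0.38, limma adjusted p = 4.42e-08). Rbbp7, a histone-binding subunit, fell at the same step, to 158 FPKM at L2C, against 473 at E2C, in KO (-1.58 ± 0.17) and to 134 at L2C, against 619 at E2C, in WT (-2.19 ± 0.17). Mtf2, which brings PRC2 to CpG islands, moved the other way. It fell to 6.61 FPKM at E2C, against 12.7 at PN3, in KO and to 5.34 at E2C, against 11.5 at PN3, in WT, and rose to 23.8 at L2C in KO (1.73 ± 0.24, limma adjusted p = 5.04e-06) and to 34.1 in WT (2.47 ± 0.24, limma adjusted p = 1.79e-08). In all, 4 of the 9 rose and 2 fell from E2C to L2C in each genotype, against 26.8% and 14.0% of all genes in KO and 34.1% and 18.3% in WT.

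**Figure D5:**
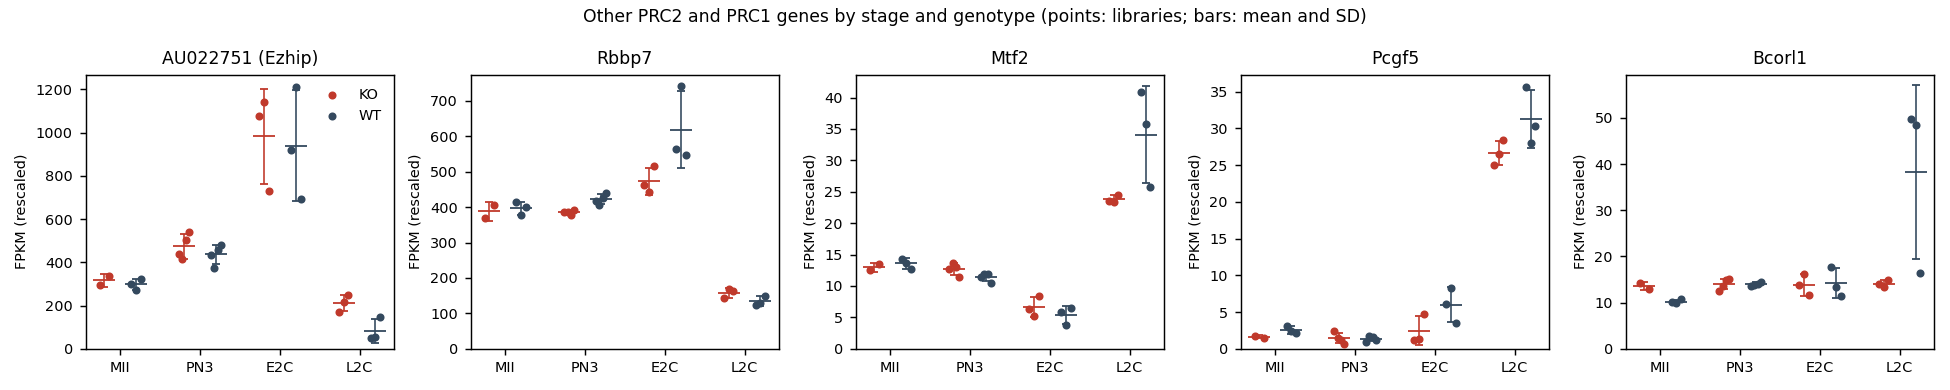
Rescaled FPKM (y axis, linear, a scale of its own for each gene) of AU022751 (Ezhip), Rbbp7, Mtf2, Pcgf5 and Bcorl1 by stage (x axis) in KO (red, left) and WT (grey, right), with 1 point per library and bars for the mean and SD. AU022751 and Rbbp7 peak at E2C and are low at L2C, Mtf2 and Pcgf5 are highest at L2C, and Bcorl1 at L2C is high in WT replicates 1 and 2 only.

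Of 24 other PRC1 genes, 21 were tested. In oocytes 3 were higher in KO and 2 lower, against 5.99% and 6.99% of all genes. Phc1, a polymer-forming subunit of canonical PRC1, had 32.1 FPKM in KO, against 26.2 in WT (0.28 ± 0.06, limma adjusted p = 0.00203). Bcorl1, a corepressor of the Pcgf1 complex, had 13.6 FPKM in KO, against 10.2 in WT (0.39 ± 0.08, limma adjusted p = 0.00228), and Pcgf3 had 12.7 in KO and 10.6 in WT (0.24 ± 0.06). Lower in KO were Rybp, which stimulates the ligase, at 32.1 in KO and 36.7 in WT (-0.19 ± 0.06), and Pcgf5, at 1.64 in KO and 2.55 in WT (-0.42 ± 0.14). Of 35 alternatives, these calls held in 23 (Pcgf5) to 34 (Phc1 and Bcorl1), and none held with equal weights. No PRC1 gene passed at PN3 or E2C. At L2C only Bcorl1 of the 21 passed, now lower in KO (0.323% of all genes called lower), with 14.0, 13.5 and 14.8 FPKM in KO, against 49.7, 48.4 and 16.5 in WT (-1.22 ± 0.29, limma adjusted p = 0.0456). The KO level was close to that of the early 2-cell stage (13.9 in KO, 14.2 in WT). WT replicate 3 lay near the KO libraries. Without it the difference was -1.73 (limma adjusted p = 3.46e-06), an increase in size that follows from that choice of library. The call held in 8 of 35 alternatives (limma adjusted p from 3.46e-06 to 0.346).

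From E2C to L2C, 7 of the 21 other PRC1 genes rose and 3 fell in KO, and 11 rose and 4 fell in WT, against 26.8% of all genes called higher and 14.0% lower in KO and 34.1% and 18.3% in WT. Their median was 0.53 in KO and 0.89 in WT, against 0.15 and 0.25 over all genes. Pcgf5, a paralog of Pcgf1 and Pcgf6, rose to 26.6 FPKM at L2C, against 2.43 at E2C, in KO (3.15 ± 0.52, limma adjusted p = 3.72e-05), and to 31.3 at L2C, against 5.98 at E2C, in WT (2.26 ± 0.52, limma adjusted p = 8.10e-04). L3mbtl2, a partner of Pcgf6, rose to 21.2 at L2C, against 4.65 at E2C, in KO (1.91 ± 0.32) and to 30.7 at L2C, against 5.62 at E2C, in WT (2.21 ± 0.32). Auts2, a partner of Pcgf3 and Pcgf5, fell to 21.3 at L2C, against 43.8 at E2C, in KO and to 20.9 at L2C, against 44.6 at E2C, in WT. The next largest falls were that of Phc1 in KO, to 16.8 at L2C, against 29.6 at E2C, and that of Scmh1, a PRC1-associated protein, in WT, to 12.6 at L2C, against 26.0 at E2C.

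Known targets of the complexes were followed in a list of 48 developmental regulators, of which 13 reached the filter of 1 FPKM in 3 libraries. Their summed level was 17.8 to 22.6 FPKM in KO and 21.9 to 27.4 in WT in oocytes and zygotes, and 83.7 to 114 in KO and 98.1 to 119 in WT at L2C. In oocytes 2 of the 13 were higher in KO and 1 lower, against 5.99% and 6.99% of all genes. Lhx2 (3.65 FPKM in KO, 2.51 in WT, limma adjusted p = 0.0168) and Tbx3 (1.90 in KO, 1.38 in WT, limma adjusted p = 0.00161) were higher, and Isl1 (0.307 in KO, 0.725 in WT, limma adjusted p = 0.00335) was lower. Of 35 alternatives these calls held in 27, 32 and 34 in that order, and none held with equal weights. At PN3, Gata4 was lower in KO, with 5.78, 5.80, 7.06 and 6.16 FPKM in KO zygotes, against 8.62, 8.44, 11.03 and 11.07 in WT zygotes (-0.58 ± 0.10, limma adjusted p = 0.00207). The groups did not overlap. No count over the alternatives is given for this PN3 call, so how far it depends on the processing is not shown. At L2C, Cebpa was higher in KO, with 7.82, 3.68 and 4.41 FPKM, against 1.37, 0.582 and 1.67 in WT (1.49 ± 0.26, limma adjusted p = 0.0117). It did not pass with the L2C groups fitted alone (limma adjusted p = 0.295), and over 35 alternatives its adjusted p ran from 8.17e-05 to 0.295. The interaction from MII to PN3 passed for Tbx3 (-0.47 ± 0.09, limma adjusted p = 0.00573), again with no count over the alternatives. Most of the L2C sum came from Gata4, which rose to 37.1 FPKM at L2C, against 8.44 at E2C, in KO and to 64.0 at L2C, against 8.94 at E2C, in WT, and Tbx3, which rose to 18.4 at L2C, against 3.44 at E2C, in KO and to 21.8 at L2C, against 3.65 at E2C, in WT.

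Over the 25 libraries, which share their stages, Ezh2 and Eed had a Pearson r of 0.92 on the log2 scale, Ezh2 and Kdm2b 0.80, Eed and Kdm2b 0.85, and Suz12 and Rnf2 0.96. Suz12 and Pcgf1 ran opposite, at -0.92. Among all genes tested, those most alike were Tbc1d15 and Tom1l1 for Ezh2 (0.979 and 0.977), Mff and Pigc for Eed (0.976 and 0.974) and Usp19 for Kdm2b (0.976). They were Azin1 and Ctdspl2 for Suz12 (0.979 and 0.975), Cdk8 and Zfyve9 for Rnf2 (0.980 and 0.979) and Mterf4 and Ncaph for Pcgf1 (0.972 and 0.964). For the remaining members they were Inpp4a and Ube4b for Ezh1 (0.916 and 0.912), Tbx3os2 and Txn1 for Jarid2 (0.953 and 0.951) and Aurka and Dand5 for Pcgf6 (0.924 and 0.920). No p is given, because libraries of a stage are not independent points.

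The members lie on GRCm38 (GENCODE M21) at chromosome 11, 101191115 to 101226463 (Ezh1) and 79993106 to 80034123 (Suz12), chromosome 6, 47530139 to 47595341 (Ezh2) and 83077869 to 83080855 (Pcgf1), and chromosome 7, 89954654 to 89980983 (Eed). Jarid2 is on chromosome 13, 44729474 to 44921643, Ring1 on chromosome 17, 34020792 to 34024680, and Rnf2 on chromosome 1, 151458004 to 151500955. Pcgf6 is on chromosome 19, 47033617 to 47050906, and Kdm2b on chromosome 5, 122870665 to 122989823. Exons of a gene on the other strand cover 6.82% of the exonic bases of Eed (E230029C05Rik), 5.77% of Kdm2b (Rnf34), 3.83% of Rnf2 (Trmt1l), 3.60% of Suz12 (Gm26563) and 2.61% of Ezh2 (Gm26625). The sources used here do not say whether the authors' counting used strand, so reads in these stretches cannot be assigned with certainty.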

How the data were processed

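RNA was measured in 25 libraries of MII oocytes, PN3 zygotes and 2-cell embryos. The authors deposited FPKM values per gene symbol. The submitters' processing notes name HTSeq, StringTie, HISAT2 and Trim Galore 0.4.5, and the builds GRCm38 and mm10, without saying which step each served. Libraries are ribosome-depleted and stranded, per the labels' protocols. No counts or whole-read steps were found, so depth and counting error are unknown.

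FPKM values were rescaled by median ratios over 6492 genes with at least 1 FPKM in every library. The 12079 genes with at least 1 FPKM in 3 or more libraries were fitted on log2(FPKM + 1), which understates changes of low genes, with limma 3.58.1 in R 4.3.3. The fit had 8 group means, 17 residual degrees of freedom, 1 variance weight per stage because the spread differed between stages, and a robust prior that follows the mean. It was also run on simulated data with normal noise, independent between libraries. That noise held no outlying libraries and no shared batch, so it does not test the fit for these. Benjamini-Hochberg adjustment ran over all genes tested, with a threshold of 0.05. Paralog ratios were tested by exact permutation. Figures were drawn with matplotlib.

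Alternatives were equal or per-library weights, the compared groups alone, other scalings, pseudocounts and filters, a replicate block, and leaving out libraries. The members, and the lists of other PRC2 genes, other PRC1 genes, opposing enzymes, developmental Polycomb targets, genes imprinted by maternal H3K27me3 and markers of oocytes, 2-cell embryos, cumulus and granulosa cells, sperm and blood, were chosen with earlier results of these data known. Named genes are the 10 members, Smarca4, listed genes called between KO and WT (at most the 3 largest each way beyond 6), the 2 listed genes that changed most each way between stages, and the 2 genes most alike to each member, of which 1 is not reported here. Synonyms and promoters are from RefSeq, positions from GENCODE M21.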

Additional observations from a re-analysis of the deposited data

Results flagged for a closer look

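Ring1 in KO zygotes had 0.0586 FPKM in replicate 4 and was listed at 0 in the other 3 KO PN3 libraries. It was marked because the gap from replicate 4 to the others spans the whole range of the group. Any group with 3 libraries at 0 and 1 above 0 is marked, so the usual chance rate of about 1 in 20 groups does not apply here. The value is far under the filter of 1 FPKM, and WT zygotes had 0.0603 and 0.0711 FPKM in 2 libraries and 0 in the other 2.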

How the results depend on the processing

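Of the members' values called in the 10 comparisons of groups, none changed direction under any alternative. With equal weights at all stages the number of members called was 0 for KO against WT at MII, 1 at L2C, 1 for PN3 against MII, 5 for E2C against PN3 and 5 for L2C against E2C in WT, and 0 for PN3 against MII and 4 for E2C against PN3 in KO. With 1 weight per library it was 2 at L2C, 5 for E2C against PN3 and 7 for L2C against E2C in KO, and 2 for the changes of the KO effect between stages, which gave 1 with FPKM as deposited. With the compared groups fitted alone it was 2 at MII, 1 for E2C against PN3 in WT and 3 for PN3 against MII in KO. Leaving out 1 library at a time gave 2 to 4 at MII, 0 to 2 at L2C, 3 to 5 for PN3 against MII in KO, 0 to 2 for E2C against PN3 in KO and 0 to 2 for the changes of the KO effect. The cause of these shifts was not tested, apart from the shared spread, which equal weights raise at MII and PN3 and lower at the 2-cell stages.

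Replicate numbers did not pair the libraries at every stage. The same-number correlations of deviations between KO and WT were -0.12 and 0.05 in oocytes and 0.01 to 0.43 in zygotes. They were 0.07 to 0.16 in early and -0.18 to 0.22 in late 2-cell embryos. Every E2C library correlated best with its own number, as did replicates 2 and 4 at PN3. The main fit has no replicate block, and whether these libraries shared a batch was not tested. With a replicate block the genes called between KO and WT were 879 in oocytes (1567 without it), 1084 in zygotes (369), 1 (1) in early and 152 (93) in late 2-cell embryos, and 2266 (3741) in WT and 1513 (2544) in KO for E2C against PN3. Of the members, the block gave no call for Eed at MII (limma adjusted p = 0.129), Kdm2b for PN3 against MII in WT (0.244), Ezh1 for that step in KO (0.267), Jarid2 for E2C against PN3 in WT (0.255) and Pcgf1 for L2C against E2C in KO (-0.56, limma adjusted p = 0.126). For KO against WT, equal weights gave 1 gene in oocytes, 10 in zygotes, 212 in early and 1873 in late 2-cell embryos, and for PN3 against MII 716 in KO and 1342 in WT, against 4934 and 5464. Weights per library gave 666 at PN3, 24 at E2C and 3692 at L2C, and 4646 for E2C against PN3 in KO. The compared groups alone gave 424 in oocytes, 94 in zygotes, 0 at both 2-cell stages and 2111 for E2C against PN3 in WT. A pseudocount of 5 gave 8 at E2C and 422 at L2C, and no filter gave 5 at E2C. At MII, 723 genes were higher and 844 lower, against 428 and 1187 with FPKM as deposited, and at L2C 54 and 39, against 117 and 19 as TPM. For E2C against PN3 the deposited scale lowered the median of all genes to -0.10 in KO and -0.20 in WT. Depth is unknown, so no limit of detection was set for Ring1.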

Other observations

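Enzymes that oppose Polycomb, which remove its marks or write the active H3K4 mark, formed a list of 18 genes, of which 17 were tested. In oocytes Kdm6b, a demethylase of H3K27, had 101 and 81.0 FPKM in KO, against 65.9, 60.3 and 70.5 in WT (0.46 ± 0.09, limma adjusted p = 0.00106), with every KO library above every WT library. Usp16, which removes ubiquitin from H2A, had 40.8 FPKM in KO, against 48.8 in WT (-0.26 ± 0.07, limma adjusted p = 0.0239). Of 35 alternatives the Kdm6b call held in 33 and that of Usp16 in 29, and neither held with equal weights. At PN3, E2C and L2C none of the 17 passed between the genotypes, and the change of the Kdm6b difference from MII to PN3 was itself past the threshold (-0.53 ± 0.14, limma adjusted p = 0.0402). For that change no count over the alternatives is given. From E2C to L2C, 2 of the 17 rose and 4 fell in KO and 3 rose and 4 fell in WT, against 26.8% of all genes called higher and 14.0% lower in KO and 34.1% and 18.3% in WT. Usp16 rose to 112 FPKM at L2C, against 54.6 at E2C, in KO and to 138 at L2C, against 57.8 at E2C, in WT, and Rbbp5, a core subunit of the H3K4 methyltransferases, fell by 0.79 (log2) in KO and by 1.15 in WT.

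Of 16 genes known to be imprinted by maternal H3K27me3, 8 were tested. Flt1 was higher in KO oocytes, with 2.73 and 2.48 FPKM, against 1.67, 1.81 and 1.98 in WT (0.35 ± 0.07, limma adjusted p = 0.00218), a call that held in 33 of 35 alternatives and not with equal weights. It was also higher in KO zygotes, with 2.89, 3.35, 3.03 and 3.01 FPKM, against 2.06, 2.27, 1.52 and 1.71 in WT (0.50 ± 0.09, limma adjusted p = 0.00193). For the zygote call no count over the alternatives is given. No other gene of this list passed between the genotypes at any stage. From E2C to L2C, 4 of the 8 rose and 1 fell in KO and 6 rose in WT, against 26.8% of all genes called higher and 14.0% lower in KO and 34.1% called higher in WT. Tle3 rose to 10.6 FPKM at L2C, against 0.699 at E2C, in KO and to 10.2 at L2C, against 1.15 at E2C, in WT. These values are of total RNA, and the files do not tell the maternal allele from the paternal.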
